A study of Mus musculus with 6 samples.

Results

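The histone methylation and deacetylation enzymes were examined in mouse regulatory T (Treg) cells made in culture with or without sorafenib (Sora), a kinase inhibitor given in liver cancer. A gene was a member when its symbol in the count table belonged to the Kmt, Setd, Prmt, Kdm, Hdac or Sirt1 to Sirt7 series, or when it was Ezh1, Ezh2, Eed, Suz12, Dot1l, Ehmt1, Ehmt2 or Nsd1. The rule used names and no measured value, and it found 68 of 22939 genes: 32 histone and arginine methyltransferases or their core subunits, 18 demethylases and 18 deacetylases. A few members act mainly on other proteins, and this is said where they are described.

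Naive CD4 T cells came from Foxp3-GFP knock-in mice on the C57BL/6J background, in which a green fluorescent protein reports expression of Foxp3, the transcription factor that defines Treg cells. All cultures received anti-CD3 and anti-CD28 antibodies, the cytokine TGF-β1 and antibodies against IFN-γ and IL4, and Sora was present only in the treated ones. GFP-positive cells were sorted and sequenced as 3 control (ctrl-Treg) and 3 Sora-Treg libraries. The Sora dose and the age and sex of the mice are not given in the labels of these libraries. The study's abstract appears to describe its mice, Foxp3-GFP mice among them, as female. Nothing states that the libraries of a group came from separate cultures or animals, so the p-values measure only the spread between these libraries, which may be technical.

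Total counts ranged from 30727686 to 37717324 per library, at which 3 counts amounted to between 0.0762 and 0.0989 CPM, the count scaled to library size. Treg markers fitted the label, since Foxp3, Cd4 and Il2ra were abundant in all 6 libraries. The 7 listed Treg genes summed to between 3889 and 3930.2 CPM in ctrl-Treg and between 6801 and 6912 CPM in Sora-Treg libraries. Most of that difference lay in Il2ra (mean 1934 against 3795 CPM) and Ctla4 (383 against 1108 CPM), and Cd3e and Tnfrsf18 were also higher. Foxp3, Cd4 and Ikzf2 barely moved (log2 change 0.074, 0.061 and 0.021). With scaling by library totals these 3 values were -0.041, -0.054 and -0.095. The 7 myeloid markers summed to 94.5, 94.3 and 25.1 CPM in ctrl-Treg and 23.0, 42.9 and 20.9 CPM in Sora-Treg libraries, and thus ctrl-Treg replicates 1 and 2 stood apart, and 6 of the 7 were called lower in Sora-Treg cells. B cell markers summed to at most 10.7 CPM in any library. The defining NK and erythroid markers Klrb1c, Klra7 and Hbb-bs were at or near 0 throughout, while Nkg7, which T cells also express, was between 24.2 and 27.3 CPM in ctrl-Treg and between 4.96 and 6.13 CPM in Sora-Treg libraries. Eomes, another listed NK gene that T cells also express, was higher, at between 2.10 and 2.34 CPM in ctrl-Treg and between 4.12 and 4.99 CPM in Sora-Treg libraries (log2 change 1.03, edgeR adjusted p = 2.02e-05).

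Histone tails carry methyl groups on lysines and arginines and acetyl groups on lysines. Methyltransferases write the methyl marks, the Kdm enzymes remove them from lysines, and histone deacetylases (HDACs) and sirtuins remove acetyl groups, the first with zinc and the second with NAD+. Methylation of H3K4 goes with active promoters and enhancers, while the H3K27 marks written by Polycomb repressive complex 2 (PRC2) and the H3K9 marks go with silent genes. In Treg cells Ezh2 is known for keeping the Treg program stable after activation, and HDACs and Sirt1 are known for removing acetyl groups from Foxp3 itself.

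Most of these enzymes were transcribed at moderate levels. Expression per transcript length (FPKM, fragments scaled to gene length and library total) averaged at least 10 in 44 of the 68 members and under 1 in 6. Hdac1 had the highest mean FPKM, with 106 ± 0.988 in ctrl-Treg and 105 ± 2.11 in Sora-Treg libraries (SD, n = 3). Prmt1 (97.4 ± 1.33 and 62.0 ± 2.27 FPKM) and Suz12 (63.5 ± 2.07 and 70.6 ± 3.69 FPKM) came next and changed places between the groups. At the other end, Kdm4d stayed at or below 0.179 mean FPKM in either group and Hdac9 at or below 0.0155, so their fold changes were imprecise. Kdm5d, a Y-linked H3K4 demethylase, had 1, 2 and 0 counts in the ctrl-Treg and 0 in each Sora-Treg library, and Prmt8 had 1 count in ctrl-Treg replicate 1 alone. Neither was tested. In GENCODE M21, Kdm3b, Prmt6, Hdac4 and Hdac11 share 24.6%, 23.4%, 22.4% and 15.4% of their exon bases with a gene on the other strand, so that their counts are uncertain if strand was ignored.

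**Figure D1:**
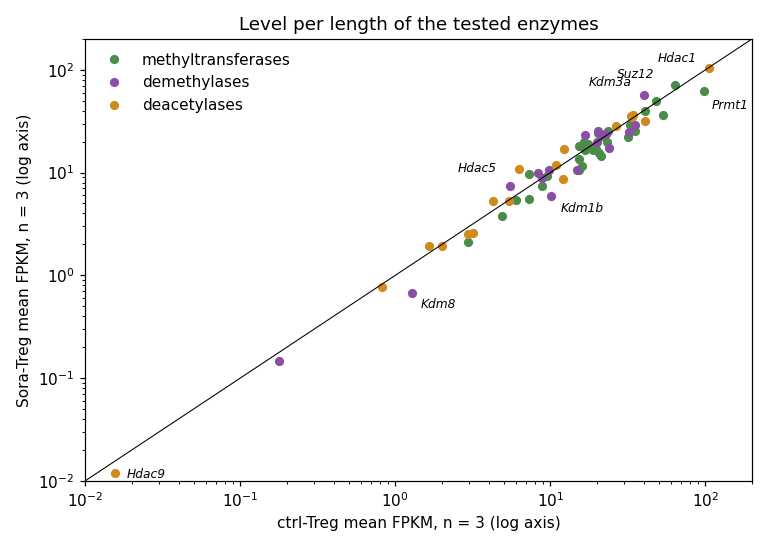
Mean FPKM (3 libraries each) of the 66 tested members in ctrl-Treg cells (horizontal, log axis) against Sora-Treg cells (vertical, log axis), with a line of equal level. Colours mark methyltransferases, demethylases and deacetylases. Points stay close to the line, with Hdac5 (6.28 against 10.9 FPKM) above it and Kdm1b (10.1 against 5.88 FPKM) below it.

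Of the 66 members tested, 30 were higher in Sora-Treg cells (45.5%, against 29.7% of all 13463 genes tested) and 21 were lower (31.8%, against 29.9%), by the edgeR quasi-likelihood test with an adjusted p under 0.05. Together these were 51 members (77.3%, against 59.6%). The lower share was thus near that of all genes. Small changes are called more readily in abundant genes, and the genes compared were not matched to the members for expression. The part of expression level in the larger shares was not tested. The changes were small: the median absolute log2 fold change was 0.25 in the members and 0.28 in all genes, and the largest in a member was 0.90, so no member passed 2-fold (6.3% of all genes did so upward and 4.97% downward). Libraries of the groups did not overlap in 30 members higher and 21 lower in Sora-Treg (31.8% and 32% of all genes). In bulk RNA a lower level in every cell and fewer cells with the transcript cannot be told apart.

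The number of genes counted as higher depended on how libraries were scaled. With scaling by library totals in place of TMM, the median over all genes shifted by -0.12 on the log2 scale, and 9 of the 30 higher members then lost the call, among them Ehmt2, Hdac1, Kdm3b and Setd2, whose sign turned. Conversely, 8 members that TMM did not call were then called lower, namely Ehmt1, Hdac4, Kmt2d, Prmt5, Setd1b, Setd6, Setd7 and Sirt4. A stricter call, the same direction under TMM, RLE, upper quartile and library-size scaling, left 21 members higher (21.3% of all genes) and 21 lower (29.6% of all genes). In what follows "rose" and "fell" are used for members that passed this stricter call, and counts of genes outside the members are those under TMM. Without ctrl-Treg replicates 1 and 2, which held more myeloid transcripts, the stricter call left 13 members higher (19.7%, against 15.8% of all genes tested in that fit) and 17 lower (25.8%, against 20.8%), a comparison chosen after seeing the data.

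**Figure D2:**
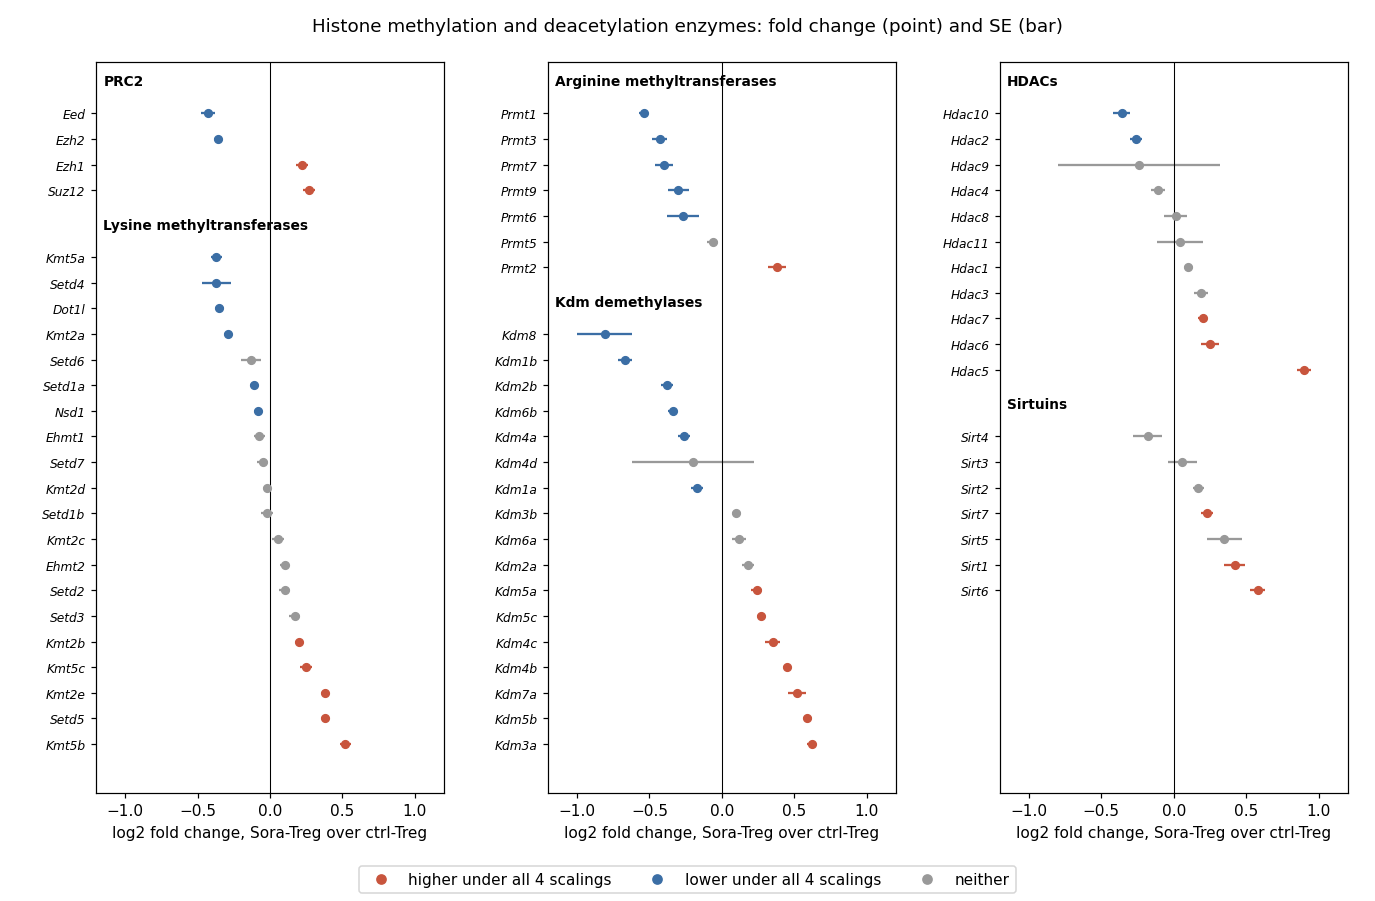
Log2 fold change of each tested member, Sora-Treg over ctrl-Treg (points, horizontal axis), with its standard error (bars), grouped by enzyme class. Red points rose and blue points fell under all 4 scalings, and grey points did neither. Changes run from -0.81 (Kdm8) to 0.90 (Hdac5).

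PRC2 was divided. This complex methylates H3K27, with Ezh2 or its slower relative Ezh1 as the enzyme and Eed and Suz12 as core subunits, and 2 of its 4 genes fell while the other 2 rose. Ezh2 read 164, 155 and 164 CPM in ctrl-Treg and 124, 127 and 125 CPM in Sora-Treg libraries. Every Sora-Treg value was below every ctrl-Treg value, and the log2 fold change was -0.36 with SE 0.03, edgeR adjusted p = 4.63e-09. Eed, which binds the finished mark, went from 102, 108 and 105 CPM to 73.3, 85.8 and 74.6 CPM, again without overlap, at a log2 change of -0.43 with SE 0.05, edgeR adjusted p = 6.18e-08. It shares 6.82% of its exon bases with E230029C05Rik, which had at most 36 counts in a library. Ezh1 moved the other way, from 94.8, 94.8 and 95.7 CPM to 114, 106 and 112 CPM. Its ctrl-Treg libraries were nearly identical and all Sora-Treg libraries lay above them, with a log2 fold change of 0.22 with SE 0.04, edgeR adjusted p = 2.13e-05. Suz12 read 259, 265 and 277 CPM and then 307, 340.5 and 316 CPM, with the highest value in Sora-Treg replicate 2 and no overlap (log2 change 0.27 with SE 0.04, edgeR adjusted p = 6.82e-07).

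The balance between the 2 PRC2 enzymes shifted too. The ratio of Ezh2 to Ezh1 FPKM within each library, which no scaling can change, was 1.52, 1.43 and 1.51 in ctrl-Treg and 0.957, 1.05 and 0.981 in Sora-Treg libraries. On the log2 scale this was a difference of -0.58, against a pooled SD of 0.0606 between replicates. With 3 libraries against 3 a two-sided exact permutation test cannot go below 0.1, the value found here. Of the 8 accessory PRC2 genes listed, 3 were higher and 3 lower, with opposite shifts in the Polycomb-like subunits Phf1 (log2 change 0.71 with SE 0.04, edgeR adjusted p = 5.88e-13) and Phf19 (log2 change -0.88 with SE 0.10, edgeR adjusted p = 4.91e-08).

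**Figure D3:**
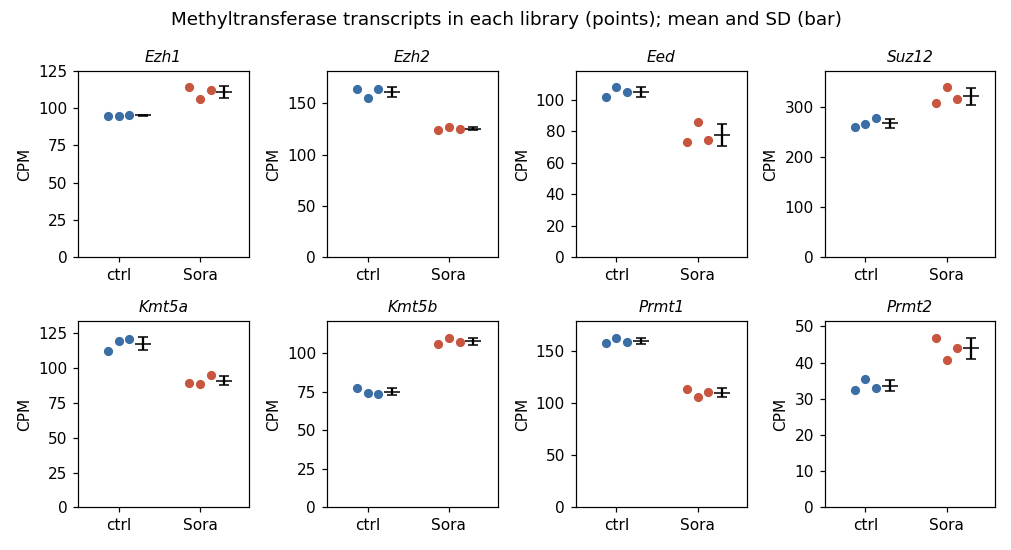
CPM after TMM scaling (vertical axis, from 0) of 8 methyltransferase genes in each ctrl-Treg (blue) and Sora-Treg (red) library, with mean and SD (black). Ezh2, Eed, Kmt5a and Prmt1 are lower and Ezh1, Suz12, Kmt5b and Prmt2 higher in all 3 Sora-Treg libraries than in any ctrl-Treg library.

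Among the 8 H3K4 methyltransferase genes, 2 rose, 2 fell and 4 were not called, where 21.3% of all genes were higher and 29.6% lower. Kmt2e, a relative that binds methylated H3K4 and is not known to write it, rose most, from 189, 184 and 188 CPM to 244, 239 and 247 CPM (log2 change 0.38 with SE 0.03, edgeR adjusted p = 1.44e-10). It shares 9.31% of its exon bases with Srpk2 on the other strand, whose log2 fold change was -0.081 (edgeR adjusted p = 0.0996). Kmt2a (MLL1) was lower, from 356, 354 and 349 CPM to 277, 298 and 291 CPM, and its groups lay well apart (log2 change -0.29 with SE 0.03, edgeR adjusted p = 1.24e-08). Its closest relative Kmt2b (MLL2) rose from 188, 185 and 185 CPM to 217, 203 and 220.5 CPM (log2 change 0.20 with SE 0.03, edgeR adjusted p = 2.00e-05). The enhancer enzymes Kmt2c and Kmt2d overlapped between the groups, with log2 fold changes of 0.057 and -0.020 under TMM. By library totals the sign of Kmt2c turned (-0.059) and Kmt2d was called lower (-0.14, edgeR adjusted p = 1.74e-04).

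Setd1a, an enzyme of bulk H3K4 trimethylation, read 132, 129.9 and 136 CPM in ctrl-Treg and 120.0, 123 and 124 CPM in Sora-Treg libraries. The fall was small but without overlap (log2 change -0.11 with SE 0.03, edgeR adjusted p = 0.00584). It shares 51.8% of its exon bases with Gm49388 on the same strand, so its counts are uncertain. Its partner gene Setd1b was not called with TMM, from 51.6, 51.0 and 52.3 CPM to 52.0, 49.4 and 51.5 CPM (log2 change -0.019 with SE 0.04, edgeR adjusted p = 0.738), and was called lower by library totals (-0.13, edgeR adjusted p = 0.0121). The Setd1b to Setd1a FPKM ratio was higher in Sora-Treg, 0.274 ± 0.0107 against 0.256 ± 0.00253 (SD, n = 3, two-sided exact permutation p = 0.1, the smallest possible). Setd7, which writes only monomethyl H3K4 and methylates many other proteins, had a log2 fold change of -0.051 and was not called with TMM. It was called lower with upper quartile scaling (-0.089, edgeR adjusted p = 0.0342) and by library totals (-0.17, edgeR adjusted p = 2.90e-04). Another 10 genes were listed for the COMPASS complexes, in which the Kmt2a to Kmt2d and Setd1 enzymes work. Of these, 5 were lower, among them Wdr5 (log2 change -0.34 with SE 0.04, edgeR adjusted p = 1.49e-07). The 3 higher included Men1 (log2 change 0.44 with SE 0.05, edgeR adjusted p = 2.55e-08), the menin that Kmt2a and Kmt2b use. They also included Kansl1 (log2 change 0.13), which is not a COMPASS subunit and was not called under all 4 scalings. In the whole list of 10, all 4 scalings left 1 higher and 5 lower.

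The H3K9 dimethyltransferase pair G9a and GLP had small fold changes. Ehmt2 (G9a) had 202, 216 and 210.2 CPM in ctrl-Treg and 226, 219 and 227 CPM in Sora-Treg libraries, without overlap. The edgeR call (log2 change 0.10 with SE 0.03, edgeR adjusted p = 0.011) held under TMM but not by library totals (-0.018), and was lost without ctrl-Treg replicate 1. Ehmt1 (GLP) read 85.2, 82.3 and 84.6 CPM and 77.4, 76.8 and 85.3 CPM, which overlapped (log2 change -0.073 with SE 0.04, edgeR adjusted p = 0.154), and was called lower by library totals (-0.19, edgeR adjusted p = 5.54e-04). Ehmt2 over Ehmt1 was 2.63 ± 0.136 in ctrl-Treg and 2.96 ± 0.144 in Sora-Treg libraries as an FPKM ratio (SD, n = 3, two-sided exact permutation p = 0.1, the smallest possible).

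On H3K36 and H3K79, the clearest change was that of Dot1l, the sole known enzyme of H3K79 methylation. It fell from 132, 134 and 133 CPM to 106, 105 and 101 CPM, with replicates within a few CPM of each other, at a log2 change of -0.35 with SE 0.03, edgeR adjusted p = 7.61e-09. Nsd1, which dimethylates H3K36, read 279, 279.8 and 289 CPM and 251, 273 and 276 CPM, so that Sora-Treg replicates 2 and 3 lay just under the ctrl-Treg libraries. Its call (log2 change -0.084 with SE 0.03, edgeR adjusted p = 0.0335) was lost without any one of ctrl-Treg replicates 1, 2 and 3 and Sora-Treg replicate 1 (adjusted p from 0.0571 to 0.275). Setd2, which adds the final methyl group to H3K36, overlapped between the groups at a log2 fold change of 0.10, and its sign turned with library totals (-0.014).

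The Nsd relatives outside the member rule had larger fold changes than Nsd1. Nsd3 had 306, 312 and 318 CPM in ctrl-Treg and 646, 659.9 and 667 CPM in Sora-Treg libraries, a more than 2-fold rise (log2 change 1.07 with SE 0.03, edgeR adjusted p = 1.41e-19). Nsd2 fell (log2 change -0.52 with SE 0.03, edgeR adjusted p = 3.14e-12). Of 12 other methyltransferases tested, all of them lysine enzymes except the arginine enzyme Carm1, 7 were lower, including Carm1 (log2 change -0.20) and the H3K9 enzyme Suv39h1 (log2 change -0.44 with SE 0.05, edgeR adjusted p = 7.23e-08), and 2 were higher, Nsd3 and Smyd3 (log2 change 0.87 with SE 0.05, edgeR adjusted p = 6.86e-13).

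H4K20 methylation is built in steps, and the genes of the steps moved apart. Kmt5a (also called SET8) places the first methyl group in mitosis, and its CPM was 112, 119.6 and 120.5 in ctrl-Treg and 89.2, 88.5 and 94.6 in Sora-Treg libraries. All Sora-Treg values were lower (log2 change -0.37 with SE 0.04, edgeR adjusted p = 2.64e-08). Kmt5b, which adds the further methyl groups, rose from 77.5, 74.5 and 73.4 CPM to 106, 110.1 and 107 CPM (log2 change 0.52 with SE 0.04, edgeR adjusted p = 5.32e-11), the largest rise of any methyltransferase among the members. Its relative Kmt5c rose less, from 51.8, 51.4 and 50.8 CPM to 63.0, 59.5 and 60.0 CPM (log2 change 0.25 with SE 0.04, edgeR adjusted p = 3.98e-05). The Kmt5a to Kmt5b FPKM ratio was 4.03, 4.45 and 4.55 in ctrl-Treg and 2.33, 2.23 and 2.46 in Sora-Treg libraries, a log2 difference of -0.89 with a pooled SD of 0.0841.

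The promoter of Kmt5a is shown because it holds 4 CCAAT boxes, the most of the promoters printed here. The 250 bases before its RefSeq start lie on the plus strand at chr5:124439680-124439929 (GRCm38.p6) and are written 5′ to 3′, with capitals for CCAAT.
Kmt5a: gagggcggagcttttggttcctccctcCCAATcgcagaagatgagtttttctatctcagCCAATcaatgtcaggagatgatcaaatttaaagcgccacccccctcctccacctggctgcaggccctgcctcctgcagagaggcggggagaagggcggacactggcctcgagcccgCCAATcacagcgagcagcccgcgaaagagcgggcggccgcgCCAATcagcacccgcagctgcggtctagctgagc
The boxes begin 223, 191, 75 and 34 bases before the start. Kmt5b, whose level moved the other way, had none of the searched motifs in its window. This pair does not stand for the members, since CCAAT was in 7 of the 17 windows of members that rose and 8 of the 18 that fell. Prmt5, not called with TMM, also had 4 boxes.

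The other Setd genes are a mixed set. Setd5, whose own enzyme activity is disputed, rose from 246, 244 and 245 CPM to 302, 327 and 328 CPM (log2 change 0.38 with SE 0.03, edgeR adjusted p = 4.90e-10). Setd4 was much scarcer and fell from 10.5, 10.1 and 10.3 CPM to 8.01, 7.03 and 8.88 CPM, with a wider error (log2 change -0.37 with SE 0.10, edgeR adjusted p = 0.00401). Setd3, which methylates actin, was higher under TMM (log2 fold change 0.17) and not called by library totals (0.057). Setd6, which methylates the RelA subunit of NF-κB, was not called with TMM (log2 change -0.13 with SE 0.07, edgeR adjusted p = 0.119) and was lower by library totals (-0.25, edgeR adjusted p = 0.00504).

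Most arginine methyltransferases fell. Of the 7 tested, 5 fell and 1 rose, where 29.6% of all genes were lower and 21.3% higher. The summed FPKM of the family was 195, 196 and 194 in ctrl-Treg and 149, 139 and 147 in Sora-Treg libraries. Prmt1, the main enzyme of asymmetric arginine dimethylation, made up 49.9% of that sum in ctrl-Treg cells. It read 158, 163 and 159 CPM against 114, 106 and 111 CPM. This was the largest fall of any methyltransferase among the members, a decrease without overlap at a log2 change of -0.54 with SE 0.03, edgeR adjusted p = 6.47e-12. Prmt3, a cytoplasmic enzyme known for methylating a ribosomal protein, fell from 51.1, 49.8 and 51.0 CPM to 37.7, 36.5 and 38.5 CPM (log2 change -0.43 with SE 0.05, edgeR adjusted p = 5.00e-08). Prmt7, which makes monomethyl arginine only, fell from 42.5, 39.0 and 40.4 CPM to 29.1, 30.2 and 32.8 CPM (log2 change -0.40 with SE 0.06, edgeR adjusted p = 2.51e-06).

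Prmt9 and Prmt6 also fell. Prmt9 did so at a log2 fold change of -0.30 with SE 0.07, edgeR adjusted p = 0.00111. Prmt6, which methylates H3R2, was the weakest call, since its groups overlapped (11.9, 12.7 and 10.4 against 9.56, 8.50 and 11.0 CPM, log2 change -0.27 with SE 0.11, edgeR adjusted p = 0.0342). It was lost without either of ctrl-Treg replicates 1 and 2 or either of Sora-Treg replicates 1 and 2. The exception in the family was Prmt2, a coactivator-type enzyme with weak activity of its own, at 32.5, 35.5 and 32.9 CPM in ctrl-Treg and 46.8, 40.8 and 44.1 CPM in Sora-Treg libraries. Each Sora-Treg value was higher (log2 change 0.38 with SE 0.06, edgeR adjusted p = 4.67e-06). Prmt5, the main enzyme of symmetric dimethylation, overlapped between the groups and had a log2 fold change of -0.064 under TMM (edgeR adjusted p = 0.163). It was called lower with upper quartile scaling (-0.10, edgeR adjusted p = 0.0288) and by library totals (-0.18, edgeR adjusted p = 3.37e-04).

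Proliferation markers fell in the same libraries. All 15 listed genes, such as Mki67 and Top2a, were lower in Sora-Treg cells (median log2 fold change -0.67), and their summed CPM was 2765, 2763 and 2826 in ctrl-Treg and 1903, 1919.9 and 1924 in Sora-Treg libraries. Ezh2, Kmt5a and Suv39h1 are known for higher expression or work in dividing cells, and the part of proliferation in the fall of any member was not tested.

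The demethylases moved both ways, with 7 of 17 tested members rising and 6 falling under all 4 scalings (21.3% and 29.6% of all genes). Their median log2 fold change was 0.12 under TMM and 0.0041 by library totals. The LSD family, which uses flavin to remove mono- and dimethyl marks from H3K4, was lower. Kdm1b (LSD2) read 51.4, 54.2 and 51.4 CPM in ctrl-Treg and 32.5, 35.0 and 31.5 CPM in Sora-Treg libraries, so that the groups lay far apart (log2 change -0.67 with SE 0.05, edgeR adjusted p = 1.56e-10). It shares 9.19% of its exon bases with Dek on the other strand, whose log2 fold change was -0.30 (edgeR adjusted p = 7.84e-06), and reads of the pair cannot be told apart if the counting ignored strand. Kdm1a (LSD1) fell less, from 109, 106 and 111 CPM to 96.7, 94.1 and 98.4 CPM (log2 change -0.17 with SE 0.04, edgeR adjusted p = 4.03e-04). The Kdm1a to Kdm1b FPKM ratio went from 3.51 ± 0.187 to 4.96 ± 0.377 (SD, n = 3, two-sided exact permutation p = 0.1, the smallest possible).

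All 3 tested H3K4 demethylases of the Kdm5 family rose. Kdm5b (JARID1B) read 134, 130.3 and 131 CPM in ctrl-Treg and 202, 200.1 and 193 CPM in Sora-Treg libraries, with the replicates of each group close together (log2 change 0.59 with SE 0.03, edgeR adjusted p = 2.18e-13). Kdm5c, the most abundant of the family, rose from 232, 236 and 237 CPM to 276, 281 and 290.0 CPM (log2 change 0.27 with SE 0.03, edgeR adjusted p = 4.49e-08). Kdm5a rose from 107, 105 and 113 CPM to 122, 128 and 132 CPM (log2 change 0.24 with SE 0.04, edgeR adjusted p = 1.75e-05). The groups overlapped in none of these genes, and the summed FPKM of the family was between 47.3 and 48.3 in ctrl-Treg and between 57.0 and 57.9 in Sora-Treg libraries.

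The Kdm5b promoter is shown as that of the family member with the largest rise. The window before its RefSeq start is on the plus strand at chr1:134559928-134560177 (GRCm38.p6). Capitals mark the single match to ACGTG, 229 bases before the start. ACGTG is the only form of the hypoxia response core that was searched.
Kdm5b: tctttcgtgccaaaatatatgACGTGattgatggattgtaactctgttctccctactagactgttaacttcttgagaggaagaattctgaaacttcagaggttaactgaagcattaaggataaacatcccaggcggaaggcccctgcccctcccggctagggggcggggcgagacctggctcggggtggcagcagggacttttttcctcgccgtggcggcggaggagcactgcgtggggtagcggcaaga
Kdm5b, Kdm3a and Kdm4b are known hypoxia-inducible genes, but the Kdm3a window held no ACGTG and no window was found for Kdm4b. All 10 listed hypoxia targets were higher in Sora-Treg cells, with a median log2 fold change of 0.93 and a summed CPM of 5033, 5140.0 and 5070.3 against 9478, 9564 and 9387. The part of this response in the rise of the demethylases was not tested.

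The H3K9 demethylases gave the largest rise of a Kdm gene. Kdm3a, which removes mono- and dimethyl H3K9, had 201, 205 and 208 CPM in ctrl-Treg and 305, 319.6 and 321 CPM in Sora-Treg libraries. The lowest Sora-Treg value was far above the highest ctrl-Treg value (log2 change 0.62 with SE 0.03, edgeR adjusted p = 2.78e-14). Its relative Kdm3b changed sign with the scaling (log2 change 0.10 with TMM and -0.013 by library totals). Kdm4 enzymes remove trimethyl marks from H3K9 and H3K36. Kdm4b rose from 110.3, 114 and 114 CPM to 155, 149 and 157 CPM (log2 change 0.45 with SE 0.03, edgeR adjusted p = 9.98e-11), and Kdm4c rose from 47.9, 50.7 and 57.0 CPM to 65.2, 66.7 and 66.6 CPM (log2 change 0.35 with SE 0.05, edgeR adjusted p = 3.60e-06). Kdm4a, the most abundant of the family in ctrl-Treg cells by FPKM, fell instead, from 157, 163 and 155 CPM to 138, 126 and 134 CPM (log2 change -0.26 with SE 0.04, edgeR adjusted p = 2.20e-06). The summed Kdm4 FPKM overlapped between the groups, at 59.9, 61.7 and 61.3 against 61.7, 58.3 and 61.2. FPKM carries scaling by library totals, unlike the TMM values above. TMM would raise the Sora-Treg sums relative to the ctrl-Treg sums, and sums under TMM were not compared. Kdm7a, which acts on dimethyl H3K9 and H3K27, rose from 49.8, 48.4 and 53.9 CPM to 66.0, 80.8 and 71.6 CPM, with the highest value in Sora-Treg replicate 2 (log2 change 0.52 with SE 0.06, edgeR adjusted p = 5.70e-08).

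Of the pair of H3K27 demethylases, which undo the work of PRC2, the inducible Kdm6b (JMJD3) fell. It read 258, 254 and 256 CPM in ctrl-Treg and 206, 194 and 208 CPM in Sora-Treg libraries, without overlap (log2 change -0.34 with SE 0.03, edgeR adjusted p = 3.27e-09). Kdm6a (UTX) had 59.7, 70.3 and 70.0 CPM and 71.4, 74.6 and 70.9 CPM. Its groups came close without overlapping, since ctrl-Treg replicate 1 was low, and it narrowly missed the call (log2 change 0.12 with SE 0.05, edgeR adjusted p = 0.0527), which it passed under some alternatives, such as RLE scaling or without ctrl-Treg replicate 2 or 3. Kdm6b over Kdm6a was 3.03, 2.53 and 2.56 in ctrl-Treg and 2.02, 1.82 and 2.05 in Sora-Treg libraries as an FPKM ratio. This was a log2 difference of -0.46 with a pooled SD of 0.122.

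Kdm2b, an H3K36 demethylase that also recruits Polycomb complexes to CpG islands, fell from 90.8, 91.7 and 89.4 CPM to 71.7, 68.4 and 69.3 CPM (log2 change -0.38 with SE 0.04, edgeR adjusted p = 1.39e-08). Rnf34, with which it shares 5.77% of its exon bases, had a log2 fold change of 0.27. Its relative Kdm2a had a positive log2 fold change of 0.18 that did not pass by library totals (0.061, edgeR adjusted p = 0.15). Kdm8, a JmjC protein now better known as a hydroxylase, was scarce, at 5.21, 5.06 and 3.85 CPM in ctrl-Treg and 2.01, 3.29 and 2.75 CPM in Sora-Treg libraries. Its fall had the largest size of any member that fell and a wide error (log2 change -0.81 with SE 0.19, edgeR adjusted p = 7.49e-04). Its level was lowest in ctrl-Treg replicate 3 within its group, the replicate with fewer myeloid transcripts, and the part of those cells was not tested. Another 7 genes were listed beside the demethylases, and whether each removes histone methyl groups was not examined. Of these, 3 were higher under TMM and 2 under all 4 scalings, among them Jmjd1c (log2 change 0.40 with SE 0.03, edgeR adjusted p = 5.53e-10). Riox1 (log2 change -0.43) and Riox2 (log2 change -0.42 with SE 0.05, edgeR adjusted p = 3.20e-07) were the 2 lower.

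**Figure D4:**
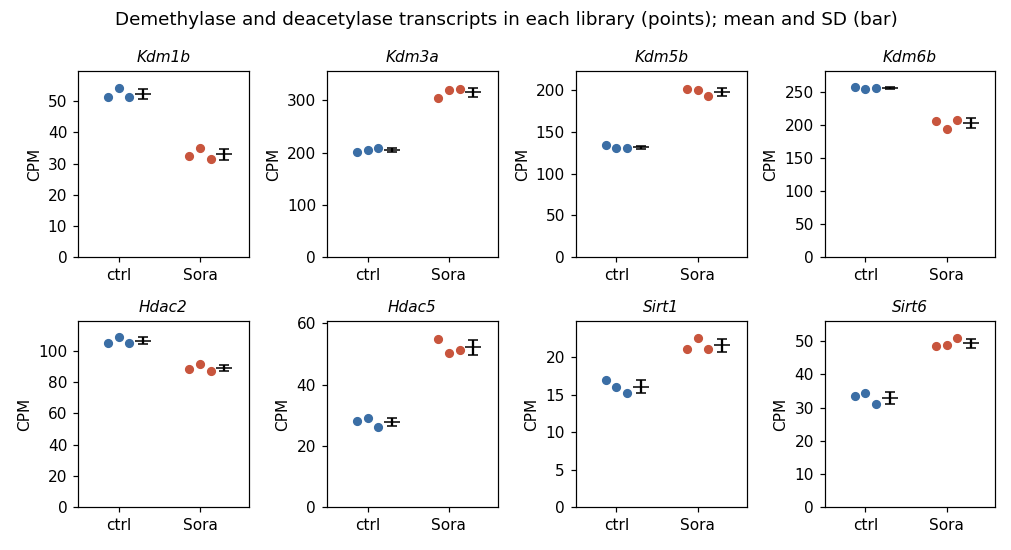
CPM after TMM scaling (vertical axis, from 0) of 4 demethylase and 4 deacetylase genes in each ctrl-Treg (blue) and Sora-Treg (red) library, with mean and SD (black). Kdm1b, Kdm6b and Hdac2 are lower and Kdm3a, Kdm5b, Hdac5, Sirt1 and Sirt6 higher in all 3 Sora-Treg libraries than in any ctrl-Treg library.

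Of the 18 deacetylases, 6 rose and 2 fell under all 4 scalings, where 21.3% of all genes were higher and 29.6% lower. Class I holds the nuclear enzymes of the Sin3, NuRD, CoREST and NCoR corepressors, and only Hdac2 changed in all 4 scalings. It fell from 105, 109 and 105 CPM to 88.4, 91.4 and 87.3 CPM (log2 change -0.26 with SE 0.04, edgeR adjusted p = 2.16e-06). Hdac1, its near twin and the member with the highest FPKM, had 202, 199 and 202 CPM and 219.9, 212 and 216 CPM, apart under TMM (log2 change 0.10 with SE 0.03, edgeR adjusted p = 0.00426) but with a log2 fold change of -0.011 by library totals. Hdac3, the NCoR enzyme, read 62.2, 68.8 and 66.8 CPM and 81.0, 69.6 and 74.7 CPM, higher with TMM (log2 change 0.19 with SE 0.05, edgeR adjusted p = 0.00282) and not called by library totals (0.073). The Hdac1 to Hdac3 FPKM ratio, 3.11 ± 0.177 against 2.94 ± 0.168 (SD, n = 3), overlapped between the groups (two-sided exact permutation p = 0.4). Hdac8 overlapped between the groups (log2 change 0.013 with SE 0.08, edgeR adjusted p = 0.902).

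Class IIa gave the largest change of any member. These HDACs shuttle between cytoplasm and nucleus, bind Mef2 factors and have little catalytic activity of their own. Hdac5 read 28.0, 29.1 and 26.3 CPM in ctrl-Treg and 54.8, 50.3 and 51.2 CPM in Sora-Treg libraries. The groups were far apart and the log2 fold change, 0.90 with SE 0.05, edgeR adjusted p = 1.59e-12, was just short of 2-fold. Its percentage change was 87.2%. Hdac7, the class IIa gene with the highest FPKM, rose from 398, 403 and 387 CPM to 462, 446 and 457 CPM (log2 change 0.20 with SE 0.03, edgeR adjusted p = 1.12e-06). Hdac4 read 64.4, 58.9 and 63.9 CPM and 56.3, 56.7 and 60.9 CPM and overlapped (log2 change -0.11 with SE 0.05, edgeR adjusted p = 0.0573). By library totals it was called lower (-0.22, edgeR adjusted p = 2.70e-04). The Hdac7 to Hdac4 FPKM ratio was higher in each Sora-Treg library, 11.2 ± 0.497 against 9.10 ± 0.611 (SD, n = 3, two-sided exact permutation p = 0.1, the smallest possible). Hdac9, a class IIa enzyme known from work on Treg cells, was close to the floor here, between 0.0989 and 0.627 CPM.

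The Hdac5 promoter is shown as that of the member with the largest change. The window is on the minus strand at chr11:102230173-102230422 (GRCm38.p6), with capitals for ATTGG, which is CCAAT read on the other strand.
Hdac5: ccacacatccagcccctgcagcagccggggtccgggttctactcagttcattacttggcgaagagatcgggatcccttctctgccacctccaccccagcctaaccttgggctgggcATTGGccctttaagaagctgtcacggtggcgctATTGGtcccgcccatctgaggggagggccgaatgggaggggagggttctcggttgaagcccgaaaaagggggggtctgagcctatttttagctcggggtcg
The matches begin 134 and 101 bases before the start.

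In class IIb the pair moved in opposite directions. Hdac6, the tubulin deacetylase of the cytoplasm, rose from 46.8, 41.5 and 43.8 CPM to 50.3, 49.7 and 56.8 CPM (log2 change 0.25 with SE 0.06, edgeR adjusted p = 6.05e-04). Hdac10, a polyamine deacetylase, fell from 27.7, 29.0 and 26.7 CPM to 22.1, 20.9 and 22.2 CPM (log2 change -0.36 with SE 0.06, edgeR adjusted p = 5.44e-05). The groups did not overlap in either gene. Hdac11, the single class IV gene, read 5.69, 5.47 and 3.60 CPM and 5.01, 4.71 and 5.56 CPM. It was lowest in ctrl-Treg replicate 3 and its sign turned without that library, from 0.044 to -0.13.

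With TMM, sirtuins were higher or not called, and 3 of the 7 rose under all 4 scalings (21.3% of all genes were higher). Sirt6, a nuclear enzyme that removes acetyl groups from H3K9, read 33.5, 34.3 and 31.0 CPM in ctrl-Treg and 48.5, 48.7 and 50.9 CPM in Sora-Treg libraries, well apart (log2 change 0.58 with SE 0.05, edgeR adjusted p = 1.60e-09). Sirt1, the sirtuin known for acting on Foxp3, rose from 17.0, 16.0 and 15.2 CPM to 21.1, 22.6 and 21.1 CPM (log2 change 0.42 with SE 0.07, edgeR adjusted p = 3.83e-05). Sirt7, a nucleolar enzyme, rose from 60.0, 61.1 and 57.8 CPM to 72.9, 68.9 and 68.2 CPM (log2 change 0.23 with SE 0.04, edgeR adjusted p = 7.44e-05). The cytoplasmic Sirt2 and the mitochondrial Sirt5 were called with TMM (log2 fold change 0.17 and 0.35) and not by library totals. The mitochondrial Sirt3 and Sirt4 had log2 fold changes of 0.060 and -0.18 and were not called with TMM, but Sirt4 was lower by library totals (log2 change -0.29, edgeR adjusted p = 0.0145). Sirt3 shares 7% of its exon bases with Ric8a and 5.73% with Psmd13, both on the other strand. Ric8a had between 1956 and 2499 counts in a library and Psmd13 between 1690 and 2484, while Sirt3 had between 266 and 331. The log2 fold changes of these partners were 0.14 and -0.18, so the Sirt3 value is uncertain if strand was ignored.

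The partners and counterparts of the deacetylases showed both directions too. Of 25 corepressor genes, 11 were higher and 5 lower under TMM (29.7% and 29.9% of all genes). Under all 4 scalings 8 were higher and 4 lower. Rcor2, a CoREST scaffold, was the only one beyond 2-fold (log2 change 1.64 with SE 0.09, edgeR adjusted p = 1.49e-13). Mbd2, a methyl-DNA binding subunit of NuRD, was also higher (log2 change 0.48 with SE 0.03, edgeR adjusted p = 5.09e-12). Of 11 genes listed as histone acetyltransferases, 3 were higher and 5 lower, the latter including Hat1 and Naa60. Whether each of them lays down marks that HDACs remove was not examined. Ep300, known for acetylating Foxp3, was higher (log2 change 0.50 with SE 0.03, edgeR adjusted p = 1.78e-12), as was Kat6b (log2 change 0.85 with SE 0.05, edgeR adjusted p = 4.34e-12), while Kat2a was lower (log2 change -0.43 with SE 0.05, edgeR adjusted p = 3.58e-08).

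**Figure D5:**
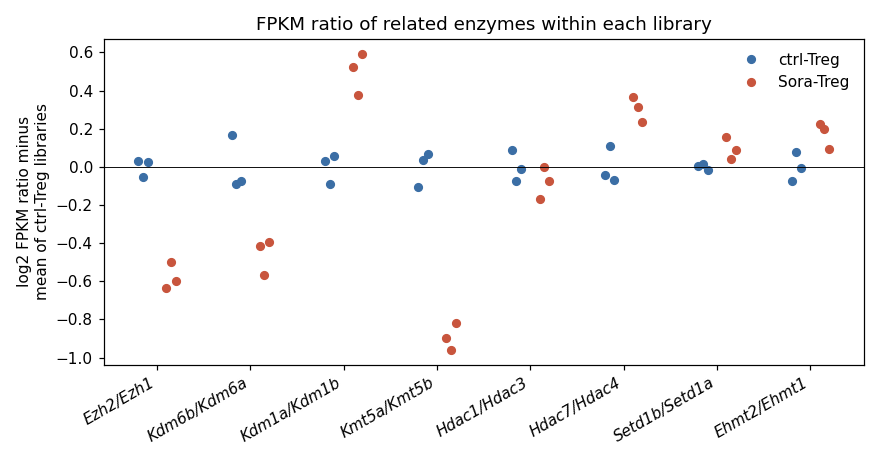
Log2 FPKM ratio of 8 pairs of related members in each library, relative to the mean of the ctrl-Treg libraries (vertical axis), for ctrl-Treg (blue) and Sora-Treg (red) libraries. Groups are apart for every pair except Hdac1/Hdac3, from a difference of -0.89 for Kmt5a/Kmt5b to 0.50 for Kdm1a/Kdm1b.

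Promoter windows of 250 bases were found for 56 of the 68 members in RefSeq and searched on both strands. CCAAT was in 23 of them (41.1%, against 34.5% of 27025 mouse promoters), and ACGTG in 15 (26.8%, against 16.6%). The E-box CACGTG, each match of which also counts as ACGTG, was in 5 (8.93%, against 6.05%), among them Prmt1. The E2F motifs TTTCCCGC, TTTGGCGC and TTTCGCGC were in 3 (5.36%, against 1.59%). Among members with a window, ACGTG was in 5 of the 17 that rose and 5 of the 18 that fell, and CCAAT in 7 and 8. The E2F motifs were in 2 that rose and 0 that fell, and the E-box in 1 and 2. These are counts of letters in a window and say nothing on whether a factor was bound.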

How the data were processed

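RNA-seq was measured in 3 ctrl-Treg and 3 Sora-Treg libraries, grouped and numbered by their titles. The authors deposited a table of raw counts (22939 gene symbols) and one of FPKM values. Each FPKM equalled its count over one gene length and the library's total (largest relative difference 1.09e-06), so FPKM is no separate measurement. The study's methods name Bowtie2 and GRCm38, and the submitters' processing notes list fastp, HISAT2, HTSeq and GRCm39, so the sources differ. Strand handling and annotation are not given in the sources used here. Genes that overlap are therefore uncertain.

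Counts were tested with the edgeR 4.0.16 quasi-likelihood test in R 4.3.3 (TMM scaling, filterByExpr, 13463 genes, Benjamini-Hochberg adjustment over all of them, threshold 0.05, no covariate). The SE of a log2 fold change is the one its F statistic implies. CPM values are counts scaled to the TMM-adjusted library size. Total counts were 30727686 to 37717324, the biological coefficient of variation was 4.29%, and intervals or floors of 3 counts cover counting error only. Libraries of a group differed by more than sampling noise (chi-square per degree of freedom 3.48 to 6.23). FPKM ratios of pairs were compared by two-sided exact permutation tests.

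The members and lists were chosen with earlier results of these data known, so nothing here is independent evidence. Members are given library by library when they passed all 4 scalings with the smallest adjusted p in their class (up to 4) or belonged to a ratio pair, and up to 6 genes by adjusted p were named from other lists. Genes named as overlap partners or markers were added to explain a value. The alternatives were scaling by RLE, by upper quartile or by library size, other filters on low counts, robust fits, a block on the replicate number, removal of a length trend, DESeq2 1.42.0, limma 3.58.1 on log2(FPKM + 1) or log2(FPKM + 0.1), and leaving out each library. The edgeR, DESeq2 and limma scripts were tested on simulated data. Gene positions and promoters are RefSeq on GRCm38.p6, with the first listed window per gene, and exon overlaps are from GENCODE M21, which may not be the annotation behind the counts.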

Additional observations from a re-analysis of the deposited data

How the results depend on the processing

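Of the 66 tested members, 36 kept direction and call in every alternative listed above that tested them, and of the 42 that passed all 4 scalings, 35 did. The run without ctrl-Treg replicates 1 and 2 was not part of these counts. With limma on log2(FPKM + 1), log2(FPKM + 0.1) and log2(FPKM + 1) without a filter, which carry library-size scaling, 19, 19 and 16 members were called higher and 2357, 2350 and 2577 of all genes. Without ctrl-Treg replicates 1 and 2, chosen after seeing the data and with the lone control library assumed to vary like the others, 13 members were higher and 17 lower under all 4 scalings, as were 2243 and 2953 of the 14195 genes tested in that fit. Leaving out each library in turn gave 28 to 31 members higher and 19 to 23 lower, and 17 to 23 and 19 to 23 under all 4 scalings.

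In 11 members a value changed sign. By library totals the log2 fold change was -0.018 for Ehmt2, -0.011 for Hdac1, -0.072 for Hdac11, -0.10 for Hdac8, -0.013 for Kdm3b, -0.059 for Kmt2c, -0.014 for Setd2 and -0.056 for Sirt3. The 3 limma settings, in the order above, gave -0.017, -0.018 and -0.017 for Ehmt2, -0.011 in each for Hdac1, -0.032, -0.039 and -0.032 for Hdac11, -0.012 in each for Kdm3b, -0.055, -0.060 and -0.055 for Kmt2c, -0.014, -0.015 and -0.014 for Setd2, and -0.047, -0.055 and -0.047 for Sirt3. Hdac8 was -0.025 with upper quartile scaling, -0.0022 when every gene with a count was kept, -0.00076 with the length trend removed and -0.044 with limma without a filter. Leaving out libraries, Hdac8 ranged from -0.021 to 0.051, Hdac11 from -0.13 to 0.17, Hdac9 from -1.17 to 0.17, Kmt2d from -0.030 to 0.0075 and Setd1b from -0.030 to 0.0055. The cause was not tested.

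Replicate numbers did not pair the libraries (correlations of deviations -0.0438, 0.0591 and 0.0299). With the replicate number as a block 31 members were higher and 22 lower. DESeq2 gave 30 and 19, with no adjusted p for 2 members. Depth limits Hdac9, Kdm4d and Prmt8, for which a change was not detectable. Nor was one for the Y-linked Kdm5d, with at most 2 counts in a library.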
